A study of Mus musculus with 3 samples.

Results

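The 32 genes described here encode the transporters and enzymes that carry glucose to pyruvate, lactate and glycogen in the mouse brain. They were chosen by name, with earlier results of these data known, from the 28001 features of the deposited table, and all 32 were found there. By role they are 2 glucose transporters, 15 glycolytic enzymes from hexokinase to pyruvate kinase, 2 isoenzymes of the regulatory enzyme PFKFB, 2 lactate dehydrogenase subunits, 3 monocarboxylate transporters, 2 pyruvate dehydrogenase subunits, 3 pyruvate dehydrogenase kinases, and 3 enzymes that make or break down glycogen. The question was which isoform of each step the neurons, astrocytes, oligodendrocytes, endothelial cells, microglia and macrophages of the nucleus accumbens used.

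The cells came from the nucleus accumbens, a ventral striatal nucleus of the reward circuit, dissected from 400-µm coronal slices of Thy1::ChR2 mice and dissociated with a protocol for adult tissue. In this strain the neuronal Thy1 promoter drives channelrhodopsin-2, a light-gated cation channel, in subsets of neurons, and FLiCRE, a recorder that writes the coincidence of calcium and light into a reporter RNA, was applied during light stimulation in the nucleus. All 3 libraries form a single group that carried the transgene, the recorder and the stimulation, so every comparison below is between cell classes of the same libraries. The labels give neither age nor sex, and nothing in them says that the libraries came from separate animals. The p-values measure how class differences vary between libraries, after the shift shared by a whole library is taken out. That variation may be technical.

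Of 11625 deposited cells, 10291 passed the filters and 7324 were assigned to 6 classes by marker genes that include none of the 32. The classes held 4418 neurons, 824 astrocytes, 1211 oligodendrocytes, 431 endothelial cells, 198 microglia and 242 macrophages, the last defined by MHC class II and myeloid genes. Cells per class and library ranged from 2970 neurons in library 2 to 23 macrophages in library 3, and summed depth from 8506888 to 44711 UMIs (unique molecular identifiers, each counted as 1 RNA molecule). The 5 neuronal check markers, which no gate uses, reached 6005 to 8411 CPM (UMIs of a gene per 1000000 UMIs of that class in that library) in neurons, and 6 phagocyte markers 29428 to 34689 CPM in microglia and 7839 to 20411 CPM in macrophages. The macrophage gate also admits MHC class II-positive dendritic cells. Of the dendritic check markers, Ccr7 was at 92.7, 129.8 and 146 CPM in this gate and Ccl22 at 292, 41 and 16.2 CPM. Both were at 0 to 20.3 CPM in microglia. Flt3 was at 21.4, 6.83 and 97.2 CPM against 0, 10.1 and 0 CPM in microglia, and Zbtb46 at 14.3, 13.7 and 48.6 CPM against 0 CPM. Fscn1 went the other way in libraries 2 and 3, at 157, 47.8 and 48.6 CPM against 89.5, 252 and 529 CPM in microglia. The part of dendritic cells in the macrophage values was not tested. In each of the 5 other classes the neuronal check markers were higher in library 2 than in libraries 1 and 3. Their sum was 67.1, 856 and 112 CPM in microglia, 171, 758 and 162 CPM in macrophages and 221, 537 and 142 CPM in endothelial cells of libraries 1, 2 and 3.

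Glycolysis splits glucose into pyruvate through a chain of enzymes, several of which exist as isoforms encoded by separate genes. Lactate dehydrogenase interconverts pyruvate and lactate as a tetramer of A and B subunits (Ldha and Ldhb), and the monocarboxylate transporters move lactate across membranes. In the brain glucose enters through endothelial cells of the blood-brain barrier, glycogen is stored mainly in astrocytes, and a widely discussed model has astrocytes pass lactate to neurons.

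Promoters of both lactate dehydrogenase genes and both hexokinase genes are printed here because their leading isoform differed between classes. Hk2 and Ldha took the larger share in macrophages, and their partners Hk1 and Ldhb in neurons and astrocytes. The 2 families did not go together in every class. In microglia the larger shares were Hk2 (97.9%) and Ldhb (71.4%), and in endothelial cells Hk1 (97.8%) and Ldha (83.7%). Each line holds the 250 bases before a RefSeq start (GRCm38.p6), 5′ to 3′ on the gene's strand. Capitals mark ACGTG or its reverse complement CACGT, the core of the element bound by hypoxia-inducible factors. The palindrome CACGTG, an E-box, contains both and counts on each strand. The Ldha window is chr7:46845554-46845803 (plus strand), the Ldhb window chr6:142507958-142508207 (minus strand), the Hk2 window chr6:82774455-82774704 (minus strand) and the Hk1 window chr10:62379909-62380158 (minus strand).
Ldha: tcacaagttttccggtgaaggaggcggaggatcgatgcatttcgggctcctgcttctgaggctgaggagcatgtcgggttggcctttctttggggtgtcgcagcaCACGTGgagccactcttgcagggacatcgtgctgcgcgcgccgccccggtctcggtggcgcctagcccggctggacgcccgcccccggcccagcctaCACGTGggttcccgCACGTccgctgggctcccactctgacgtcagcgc
Ldhb: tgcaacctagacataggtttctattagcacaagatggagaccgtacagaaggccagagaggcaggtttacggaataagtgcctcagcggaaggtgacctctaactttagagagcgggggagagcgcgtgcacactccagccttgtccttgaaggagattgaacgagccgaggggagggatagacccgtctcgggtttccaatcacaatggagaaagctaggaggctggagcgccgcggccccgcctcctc
Hk2: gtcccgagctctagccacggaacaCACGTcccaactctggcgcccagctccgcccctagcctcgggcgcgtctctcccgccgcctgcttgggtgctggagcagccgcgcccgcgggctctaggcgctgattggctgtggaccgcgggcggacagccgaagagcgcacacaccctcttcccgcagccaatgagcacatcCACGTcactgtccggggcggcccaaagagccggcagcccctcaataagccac
Hk1: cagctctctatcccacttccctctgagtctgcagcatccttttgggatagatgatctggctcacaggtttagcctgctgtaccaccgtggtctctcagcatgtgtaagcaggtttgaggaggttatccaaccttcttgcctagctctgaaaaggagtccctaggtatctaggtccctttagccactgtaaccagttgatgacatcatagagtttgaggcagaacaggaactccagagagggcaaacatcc
The Ldha window held 5 matches, with 2 CACGTG palindromes, and the Hk2 window held 2, while the Ldhb and Hk1 windows held 0. A second RefSeq promoter listed for Ldha and one for Hk1 also held 0. The other form of that core, GCGTG on either strand, did not follow this division: the printed Ldha, Hk2 and Hk1 windows held 0 and the Ldhb window 1, and the second windows of Ldha and Hk1 held 1 and 3. Promoters were found for 30 of the 32 members, Slc16a7 and Slc2a3 being the exceptions, and 43.5% of their 46 windows held ACGTG on either strand, against 16.6% of all 32851 windows of the same length. For GCGTG the shares were 54.3% and 28.2%. The members' windows were also richer in G and C, at a mean of 59.7% against 53.2%, and the part of base composition in the difference was not tested. A match describes letters in the window and says nothing of binding.

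Neurons and astrocytes carried the highest summed levels of the glycolytic chain. The 15 enzymes from hexokinase to pyruvate kinase summed to 7641, 6753 and 6458 CPM in neurons of libraries 1, 2 and 3, and to 7619, 9309 and 7501 CPM in astrocytes. A large part of the astrocyte sum was the single gene Aldoc, at 3741, 5091 and 3755 CPM. The astrocyte sum is therefore not a level shared by the whole chain. Microglia followed with 3467, 2599 and 2848 CPM, and the sums in oligodendrocytes, endothelial cells and macrophages ran from 1559 to 2938 CPM. Neurons and astrocytes did not overlap with the other 4 classes in any library. Other steps had other leading classes. The glucose transporters and the monocarboxylate transporters were highest in endothelial cells. The 3 glycogen genes were highest in astrocytes, at 436, 165 and 238 CPM against 10.1 to 44.7 CPM in the other classes tested here. Mural cells (pericytes and smooth muscle of vessels), which entered no test, held 124, 56.1 and 92.2 CPM of the glycogen genes. Each UMI counts 1 molecule by its 3′ end and is not divided by length, but capture may still differ between genes, so sums and shares are read between classes rather than between genes.

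**Figure D1:**
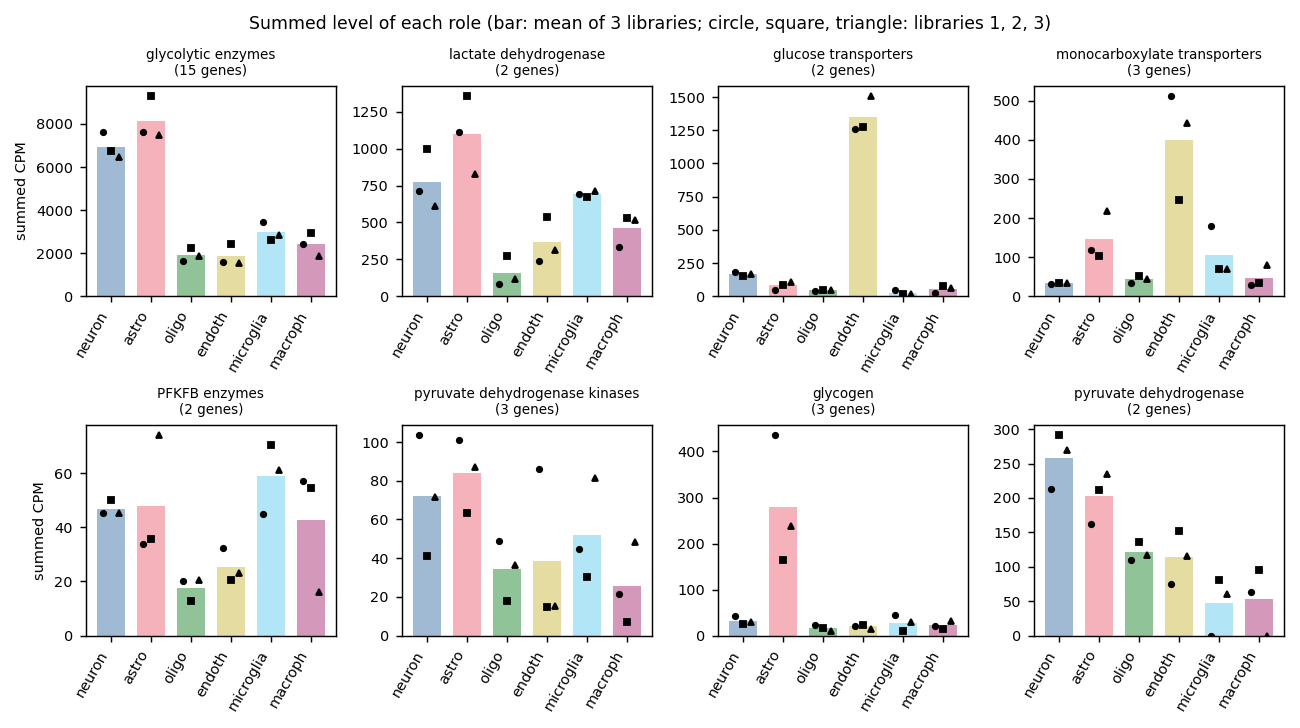
Summed level (CPM, linear axis from 0) of the members of each of 8 roles in 6 cell classes; bars are means of 3 libraries and the circle, square and triangle are libraries 1, 2 and 3. The glycolytic sum is highest in neurons and astrocytes, the glucose and monocarboxylate transporter sums in endothelial cells, and the glycogen sum in astrocytes. Aldoc alone makes up a large part of the astrocyte glycolytic sum.

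Tested gene by gene, most members were higher in neurons and in astrocytes than in the mean of the 5 other classes, and none was called higher in oligodendrocytes with the main settings. Of the 32 members 29 passed the filter on low counts (Slc16a7, Pdk4 and Pfkfb2 did not), among 9193 tested genes. In neurons edgeR called 16 members higher and 3 lower at an adjusted p under 0.05, where 59.9% of all tested genes were called, 35.8% higher and 24.1% lower, and the median log2 difference was 0.77 over the tested members and 0.15 over all tested genes. In astrocytes 19 members were higher and only Slc16a3 was lower, where 38.8% of all tested genes were called, 25.6% higher and 13.1% lower, with medians of 0.92 over the tested members and 0.09 over all tested genes. A limit of 10% mitochondrial UMIs cut astrocytes from 287, 373 and 164 cells to 191, 118 and 37 in libraries 1, 2 and 3. Of 27 members tested there, 14 were higher and 1 lower in astrocytes, with a median of 0.60. Of all 7046 genes tested there, 1531 were called higher and 783 lower. In oligodendrocytes edgeR called 0 members higher and 14 lower, where 41.2% of all tested genes were called, 25.6% higher and 15.6% lower; DESeq2 also called 0 higher and 14 lower, and 15 members had an unadjusted p under 0.05 in either direction with edgeR. Their medians were -0.79 over the tested members and 0.13 over all tested genes. With edgeR 1 member was called higher in oligodendrocytes without the low-count filter and with cells of at least 1000 UMIs. The same number was called higher with the looser gate and without the 5% of cells with most UMIs. The counts of the main settings include Slc16a1 and Pygm, each at 0 in at least 1 class. Over the 27 tested members with a UMI in every class, 17 were higher and 1 lower in astrocytes, 2 higher and 9 lower in endothelial cells and 3 higher and 3 lower in macrophages, while the counts in neurons, oligodendrocytes and microglia were as given.

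Endothelial cells had 3 members higher (Slc2a1, Slc16a1 and Ldha) and 9 lower, where 28.8% of all tested genes were called, 19.4% higher and 9.45% lower, with medians of -0.64 over the tested members and 0.03 over all tested genes. Without library 3 the endothelial count fell from 12 to 7. Microglia had 3 members higher (Hk2, Slc16a3 and Ldhb) and 3 lower (Slc2a1, Aldoc and Pdha1), where 18.7% of all tested genes were called, 11.2% higher and 7.47% lower, and their medians were -0.50 over the tested members and -0.37 over all tested genes. Macrophages had 3 higher (Hk2, Slc16a3 and Ldha) and 4 lower (Ldhb, Pdha1, Pdk2 and Slc16a1), where 19.3% of all tested genes were called, 13.1% higher and 6.25% lower, with medians of -0.10 over the tested members and -0.23 over all tested genes. The lower level of Aldoc in microglia lost its call without library 3 (-1.34). The microglial count was 3 without library 3 and 3 without the library block, and the macrophage count was 4 without library 1 and 4 without the block. DESeq2, which changes the model as well as the scaling, called 4 higher and 2 lower in microglia and 3 higher and 2 lower in macrophages. Without TMM edgeR called 3 higher and 2 lower in microglia and 3 higher and 6 lower in macrophages.

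**Figure D2:**
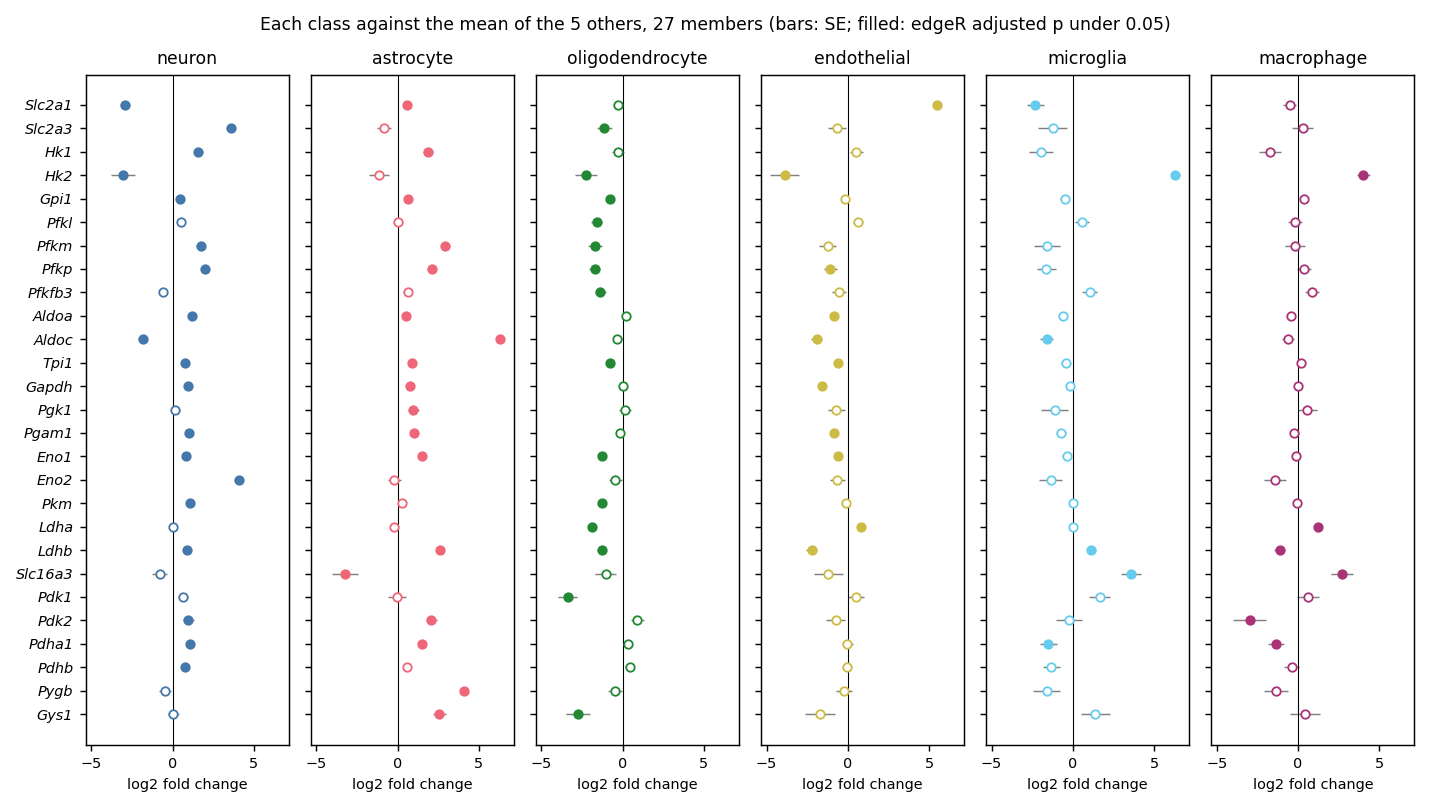
Log2 fold change with its SE (edgeR) of 27 members in each class against the mean of the 5 others; filled points have an adjusted p under 0.05. Points lie mostly right of 0 in neurons and astrocytes and left of 0 in oligodendrocytes, while Aldoc in astrocytes (6.28), Hk2 in microglia (6.30) and Slc2a1 in endothelial cells (5.47) stand farthest out.

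The fold changes rest on TMM scaling, which centres the bulk of genes. Without it the median of all tested genes moved from -0.04 to -0.55 between astrocytes and neurons, from 0.02 to -0.61 between oligodendrocytes and neurons, from 0.15 to 0.62 for neurons against the rest, and from 0.13 to -0.17 for oligodendrocytes against the rest. Between astrocytes and neurons edgeR called 12 members higher and 3 lower with TMM, where 57% of all tested genes were called, 28.4% higher and 28.6% lower, but 7 higher and 11 lower without it and 10 higher and 4 lower with DESeq2. Small differences between these classes therefore gained or lost their call with the setting, while Aldoc, Slc2a1 and Pygb remained higher in astrocytes, and Eno2 and Slc2a3 lower, under each of the 3. The count was 9 without library 3. With at most 10% mitochondrial UMIs it was 10 of 27 tested members, 6 higher and 4 lower in astrocytes, with a median of 0.06 over the members. Of all 7046 genes tested there, 1809 were called higher and 1966 lower.

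Glucose enters cells through 2 of the members, and each had 1 leading class. Slc2a1 (GLUT1, chr4:119108711-119137983), the transporter of the blood-brain barrier, was at 1251, 1261 and 1506 CPM in endothelial cells, 47.5, 72.4 and 101 CPM in astrocytes and 9.75 to 48.6 CPM in the other 4 classes. Every endothelial value exceeded every other value more than 10-fold in the linear CPM. Its log2 difference from the mean of the other classes was 5.47 ± 0.17 (SE; adjusted p = 7.20e-28). Slc2a3 (GLUT3, chr6:122727809-122801640), the high-affinity neuronal transporter, was at 176, 139 and 159 CPM in neurons and 0 to 27.3 CPM elsewhere, with no overlap, and the log2 difference was 3.58 ± 0.26 (SE; adjusted p = 1.54e-15). Slc2a3 made up 92.4% ± 2.48 (SD, n = 3 libraries) of the pair's UMIs in neurons and 10.1% ± 5.74 in astrocytes. Against the mean of the other classes, which holds the endothelial cells, Slc2a1 was lower in neurons, at 9.75, 15.8 and 12.6 CPM (log2 difference -2.93 ± 0.32 SE, adjusted p = 1.95e-10), and in microglia, at 22.4, 10.1 and 20.3 CPM (-2.30 ± 0.52 SE, adjusted p = 0.000812), where the call was lost without library 2 (-1.80).

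**Figure D3:**
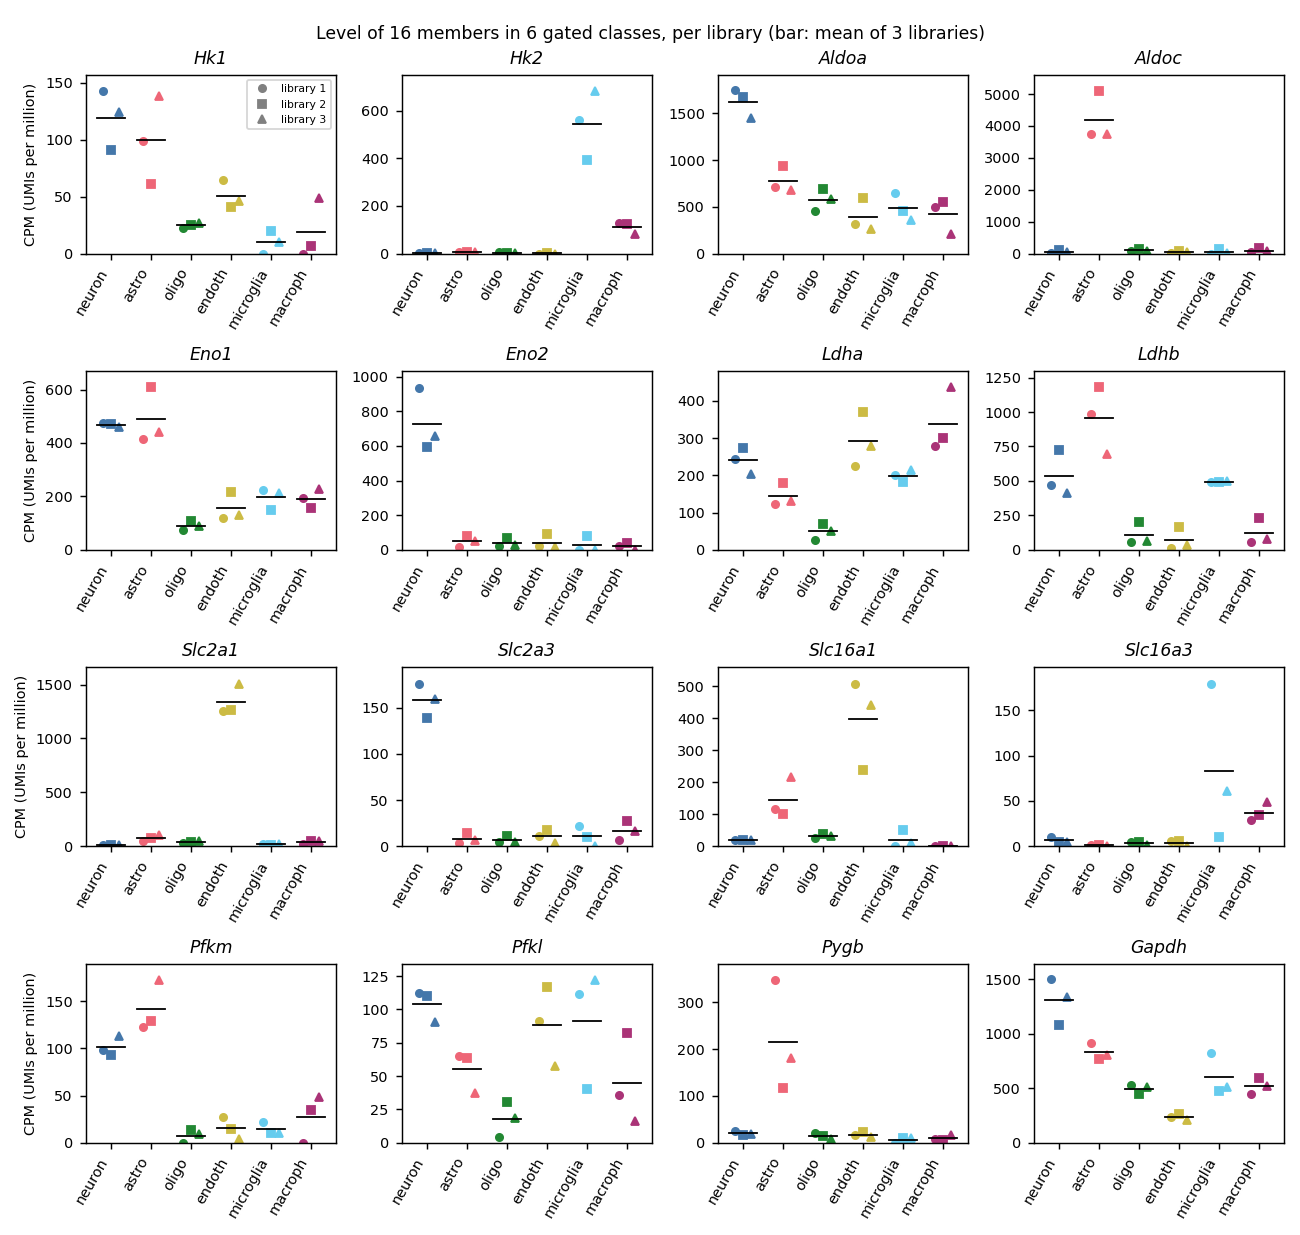
Level (CPM, linear axis from 0) of 16 members in 6 classes; circle, square and triangle are libraries 1, 2 and 3, and the bar is their mean. Aldoc stands out in astrocytes, Eno2 and Slc2a3 in neurons, Slc2a1 and Slc16a1 in endothelial cells, and Hk2 in microglia and, lower, in macrophages.

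Hexokinase, which traps glucose in the cell by phosphorylation, differed in isoform between the phagocytes (microglia and macrophages) and the other 4 classes. Hk1 (chr10:62268855-62379908), the housekeeping form of brain, was at 143, 91.1 and 124 CPM in neurons and 99, 61.3 and 138 CPM in astrocytes. It was at 0, 20.1 and 10.2 CPM in microglia and 0, 6.83 and 48.6 CPM in macrophages, where 3 UMIs correspond to between 20.5 and 67.1 CPM in a library. Hk2 (chr6:82725025-82774454), an inducible form, was at 559, 393 and 682 CPM in microglia and 128, 123 and 81 CPM in macrophages, against 0 to 8.04 CPM in the other 4 classes. No library of those 4 classes reached the lowest macrophage value, and every microglial library lay above every macrophage one. The log2 difference from the other classes was 6.30 ± 0.29 (SE; adjusted p = 8.34e-22) in microglia and 4.03 ± 0.40 (SE; adjusted p = 4.09e-11) in macrophages. Hk2 made up 100%, 95.1% and 98.5% of the pair's UMIs in microglia, and 100%, 94.7% and 62.5% in macrophages, on 134 and 45 UMIs in all. In neurons its share was 1.99% ± 0.99.

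Between the 2 phagocyte classes Hk2 was lower in macrophages (log2 difference -1.90 ± 0.36 SE, adjusted p = 0.000382), in 3 of 3 libraries. It was 1 of 2 members called, both lower, where 4.16% of all tested genes were called, 2.13% higher and 2.02% lower. No member was called higher in macrophages by edgeR or by DESeq2, while 7 members had an unadjusted p under 0.05 in either direction with edgeR and 4 with DESeq2. Medians were 0.21 over the tested members and 0.07 over all tested genes. Without library 3 no member was called, and the Hk2 difference was -1.44. The other pathway hexokinase, Hk3, a myeloid form, was at 57, 41 and 16.2 CPM in macrophages and 0, 50.4 and 10.2 CPM in microglia.

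Phosphofructokinase, the committed step, has 3 subunits, of which, in CPM, Pfkm was highest in astrocytes and Pfkp in neurons. Pfkm, the muscle form (chr15:98092589-98132451), was at 123, 129 and 172 CPM in astrocytes and stood at 98.7, 92.5 and 113 CPM in neurons and 0 to 48.6 CPM elsewhere. Pfkp, the platelet form, was at 189, 195 and 188 CPM in neurons, 117, 133 and 174 CPM in astrocytes and 0 to 82 CPM elsewhere. Both were higher in astrocytes than in the mean of the other classes, by 2.94 ± 0.28 (SE; adjusted p = 5.76e-12) and 2.09 ± 0.25 (SE; adjusted p = 4.65e-09) on the log2 scale, and both were higher in neurons, by 1.74 ± 0.29 (SE; adjusted p = 1.08e-06) and 1.98 ± 0.24 (SE; adjusted p = 1.71e-09). For Pfkp this TMM-scaled difference was slightly larger in astrocytes, so its leading class depends on the scaling. Pfkl, the liver form, was spread more evenly, at 112, 109.9 and 91 CPM in neurons and 91.7, 117 and 57.6 CPM in endothelial cells, and passed the test only in oligodendrocytes, where it was lower (4.47, 30.4 and 18.8 CPM, log2 difference -1.60 ± 0.32 SE, adjusted p = 8.88e-05). Its share of the 3 subunits was 63%, 69% and 78.9% in endothelial cells and 21.4%, 19.5% and 9.66% in astrocytes.

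In oligodendrocytes all 3 subunits were lower than in the mean of the other classes, with Pfkm at -1.69 ± 0.45 and Pfkp at -1.73 ± 0.36. Pfkp was also called lower in endothelial cells (-1.09 ± 0.40 SE, adjusted p = 0.0363), but not without library 1 (-1.28), 2 (-1.08) or 3 (-0.86). PFKFB makes fructose 2,6-bisphosphate, the activator of phosphofructokinase. Pfkfb3, its strongly activating isoform, was at 44.7, 70.5 and 61 CPM in microglia, 29.7, 29 and 66 CPM in astrocytes, 31.7, 30.2 and 24.1 CPM in neurons and 13.4, 8.43 and 14.5 CPM in oligodendrocytes. It was lower in oligodendrocytes (log2 difference -1.38 ± 0.35 SE, adjusted p = 0.00127) and was called in no other class against the rest. Astrocytes exceeded neurons in Pfkfb3 by 1.0 ± 0.33 (SE; adjusted p = 0.00844) with TMM, but by 0.49 without it and 0.45 without library 3, neither of which passed the test. Pfkfb2 was at 13.4, 19.9 and 21 CPM in neurons, 0 to 8.04 CPM in 4 other classes, and 0 UMIs among 242279 in microglia, where 3 UMIs would put neurons at least 1.59-fold higher.

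Aldolase was mostly Aldoc in astrocytes and mostly Aldoa in the other 5 classes. Aldoc (chr11:78322968-78327781), the brain form and a classical astrocyte marker, was at 3741, 5091 and 3755 CPM in astrocytes and 0 to 157 CPM in the other classes. Each of the 5 other classes had its highest Aldoc value in library 2. The log2 difference was 6.28 ± 0.19 (SE; adjusted p = 2.52e-27). Aldoc made up 84.1%, 84.5% and 84.7% of aldolase UMIs in astrocytes and 3.61% ± 2.12 in neurons. Aldoa, the widely expressed form, was at 1747, 1672 and 1453 CPM in neurons, 709, 935 and 681 CPM in astrocytes and 211 to 692 CPM elsewhere, and was higher in neurons than in the mean of the others by 1.21 ± 0.19 (SE; adjusted p = 4.36e-07).

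Enolase, the step before pyruvate kinase, was mostly Eno2 in neurons and mostly Eno1 in the other 5 classes. Eno2 (neuron-specific enolase) was at 937, 595 and 657 CPM in neurons and 0 to 90.5 CPM elsewhere, with no overlap and a log2 difference of 4.06 ± 0.30 (SE; adjusted p = 2.13e-11). It made up 66.5%, 55.9% and 58.9% of enolase UMIs in neurons and 3.69%, 11.6% and 10.5% in astrocytes. In microglia Eno2 was at 0, 80.6 and 0 CPM: the only library with a UMI was library 2, whose microglia also carried 856 CPM of the 5 neuronal check markers. The part of such free or co-captured RNA in the values of other classes was not tested. Eno1, the ubiquitous form, was at 473, 469 and 459 CPM in neurons, 414, 611 and 441 CPM in astrocytes and 73.7 to 227 CPM elsewhere.

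Among the steps with 1 member, Gapdh, Gpi1, Tpi1, Pgam1 and Pkm had their highest mean CPM in neurons and Pgk1 in astrocytes. Gapdh was at 1500.3, 1085 and 1338 CPM in neurons, 911, 766 and 809 CPM in astrocytes and 232, 266 and 207 CPM in endothelial cells. Endothelial cells were the lowest class in each library, with a log2 difference of -1.57 ± 0.21 (SE; adjusted p = 8.58e-08), so this common reference transcript was not level across classes. Pkm, pyruvate kinase, was at 1098, 960.2 and 787 CPM in neurons and 145, 206 and 121 CPM in oligodendrocytes, a log2 difference of -1.96 ± 0.27 (SE; adjusted p = 4.49e-08) between the 2 classes. Gpi1, Tpi1 and Pgam1 (glucose-6-phosphate isomerase, triosephosphate isomerase and phosphoglycerate mutase) were called higher in both neurons and astrocytes, with log2 differences of 0.47 ± 0.18, 0.77 ± 0.18 and 1.01 ± 0.20 in neurons and 0.66 ± 0.18, 0.92 ± 0.19 and 0.98 ± 0.20 in astrocytes. For Gpi1 and Tpi1 this TMM-scaled difference was larger in astrocytes, so their leading class depends on the scaling. Tpi1 was at 499.7, 427 and 358 CPM in neurons and 301, 418 and 257 CPM in astrocytes, and Pgam1 at 444, 641 and 552 and 376, 399 and 325 CPM. Gpi1 was at 341, 271 and 257 CPM in neurons and 246, 182 and 248 CPM in astrocytes. The Gpi1 calls were lost without library 3 (0.57 in neurons and 0.62 in astrocytes), and the neuronal one also without library 2 (0.39). Pgk1, phosphoglycerate kinase, was sparse, at 41.6, 36.8 and 30.6 CPM in astrocytes, 26.8, 36.7 and 29 CPM in neurons and 0 to 49.9 CPM elsewhere, and was called higher only in astrocytes (0.97 ± 0.35 SE, adjusted p = 0.0228), a call lost without library 2 (0.78) or 3 (1.0).

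Oligodendrocytes carried less of most of the chain than neurons. Of the tested members 18 were lower and 3 (Slc2a1, Aldoc and Slc16a1) higher, where 59.5% of all tested genes were called, 29.6% higher and 29.9% lower, with medians of -1.0 over the tested members and 0.02 over all tested genes. Among the 18 were Eno1 (73.7, 108 and 88.7 CPM in oligodendrocytes, -1.74 ± 0.25 SE, adjusted p = 1.29e-07), Tpi1 (71.5, 148 and 107 CPM, -1.31 ± 0.25 SE, adjusted p = 2.16e-05) and Gpi1 (100.5, 78.4 and 91.2 CPM, -1.05 ± 0.24 SE, adjusted p = 0.000202). Without TMM 21 members were lower and 2 higher, Slc16a1 no longer being called. Aldoc was at 64.8, 145 and 73.3 CPM in oligodendrocytes and 30.5, 105 and 48.3 CPM in neurons (1.26 ± 0.30 SE, adjusted p = 0.000338); with oligodendrocytes and neurons that held no marker of another class its difference was -0.34 and was not called.

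Lactate dehydrogenase divided the 6 classes into 2 sets. Ldhb (chr6:142490249-142507957), the subunit whose tetramers favour lactate oxidation, was at 988, 1178 and 697 CPM in astrocytes, 470.5, 727 and 410.0 CPM in neurons and 492, 494 and 498 CPM in microglia. It was at 57, 232 and 81 CPM in macrophages, 55.8, 203 and 64.8 CPM in oligodendrocytes and 16.2, 169 and 34.6 CPM in endothelial cells. The lowest value of the first 3 classes exceeded the highest of the other 3, and in each of these 3 the highest value was that of library 2. Ldha (chr7:46841475-46855627), the subunit whose tetramers favour lactate production, was at 278, 301 and 437 CPM in macrophages, 226, 371 and 280.4 CPM in endothelial cells, 244, 273 and 205 CPM in neurons, 201, 181 and 214 CPM in microglia, 123, 179 and 132 CPM in astrocytes and 26.8, 70.0 and 52 CPM in oligodendrocytes. Neurons overlapped with microglia and endothelial cells, and oligodendrocytes were below each of the others.

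As a share of both subunits, Ldhb was highest in astrocytes, at 88.9%, 86.8% and 84.1%, and followed with 71.4% ± 1.60 in microglia, 68.4% ± 3.72 in neurons and 65.8% ± 9.58 in oligodendrocytes. The ranges of the last 3 over libraries overlapped, and these 3 were not tested against each other. It was the minor subunit in macrophages, at 17%, 43.6% and 15.6%, and in endothelial cells, at 6.67%, 31.4% and 11%. Astrocytes exceeded neurons by 18.2 ± 4.54 percentage points, in 3 of 3 libraries. Macrophages differed from microglia by -46 ± 14.2 percentage points, and endothelial cells from astrocytes by -70.3 ± 13.6 percentage points, again in 3 of 3 libraries. A two-sided exact sign-flip test over 3 libraries cannot go below p = 0.25, which each of these 3 differences reached (adjusted p = 0.414 over 63 isoform comparisons).

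On the level itself, Ldhb was higher in astrocytes than in the mean of the other classes (2.59 ± 0.22 SE, adjusted p = 5.07e-12) and lower in endothelial cells (-2.23 ± 0.33 SE, adjusted p = 1.49e-06). It was higher in microglia (1.14 ± 0.28 SE, adjusted p = 0.00344) and lower in macrophages (-1.13 ± 0.35 SE, adjusted p = 0.0177). Between macrophages and microglia the log2 difference was -1.89 ± 0.42 (SE; adjusted p = 0.00427). Without library 3 the calls were lost in microglia (0.75), in macrophages (-1.04) and between them (-1.49), and in macrophages also without library 1 (-1.01). Without the library block the 3 differences were 1.02, -1.05 and -1.73, none of them called. Library 2, where Ldhb was highest in macrophages and endothelial cells, was also the library where these cells held most neuronal check markers (758 and 537 CPM), and the part of such RNA in their Ldhb was not tested. Ldha was higher in macrophages (1.21 ± 0.22 SE, adjusted p = 3.76e-05) and endothelial cells (0.82 ± 0.20 SE, adjusted p = 0.00123) and lower in oligodendrocytes (-1.89 ± 0.23 SE, adjusted p = 7.87e-09), and it was not called between macrophages and microglia (1.0 ± 0.32 SE, adjusted p = 0.0747).

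Shares also differed between classes in the other families. Aldoc exceeded its neuronal share in astrocytes by 80.8 ± 1.97 percentage points, while Eno2 and Slc2a3 differed there by -51.8 ± 9.71 percentage points and -82.3 ± 7.93 percentage points, each in 3 of 3 libraries. Pfkl took 53.4 ± 14.3 percentage points more of its family in endothelial cells than in astrocytes. Each of these reached the smallest p of the two-sided exact sign-flip test, 0.25 (adjusted p = 0.414). The Hk2 share differed by -12.1 ± 20.7 percentage points between macrophages and microglia (p = 0.5 by the same exact test, adjusted p = 0.643), with library 3 of the macrophages lowest. Both phagocyte classes were mostly Hk2, on few UMIs in macrophages.

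**Figure D4:**
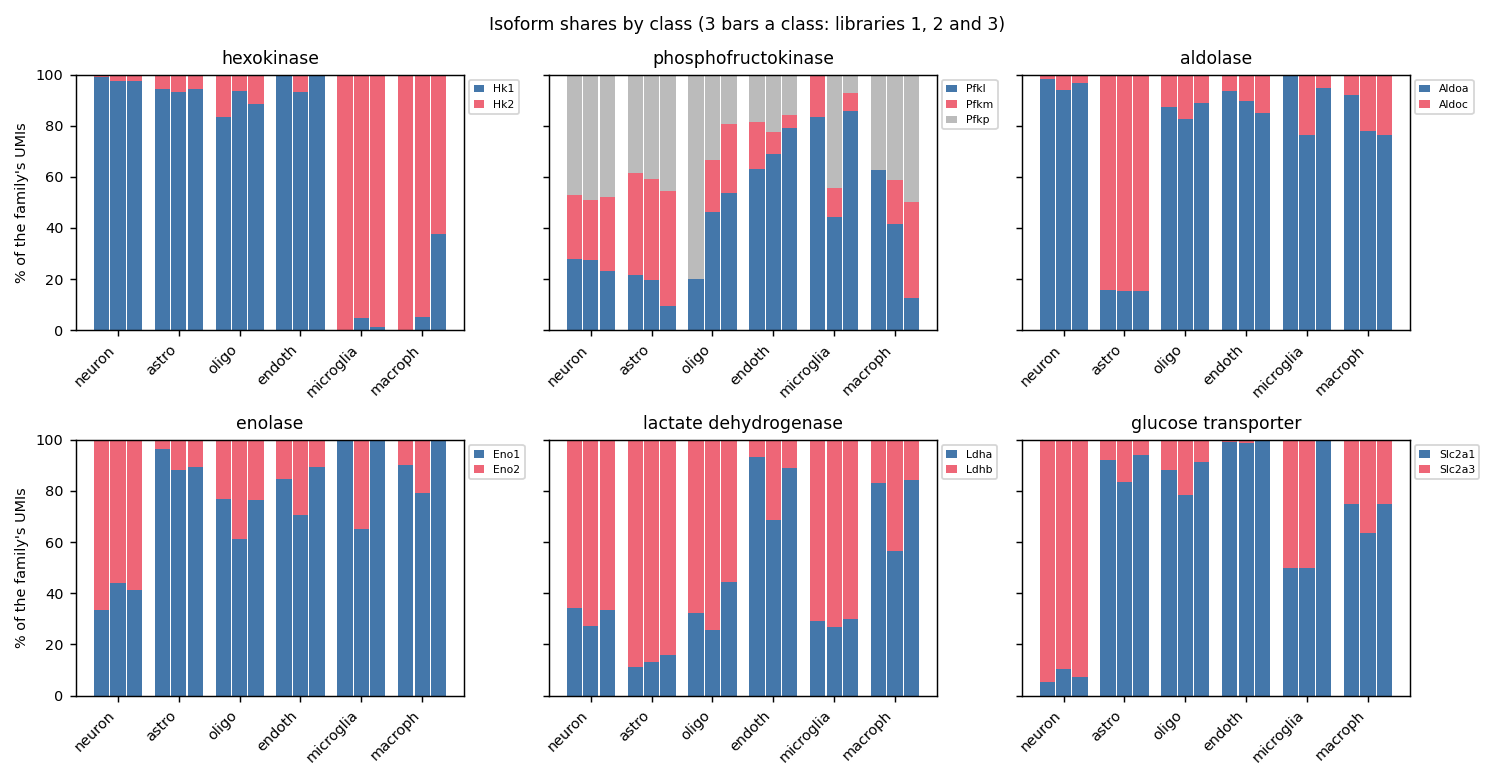
Share (% of the family's UMIs) of each isoform in 6 families, with 3 bars a class for libraries 1, 2 and 3. Microglia and macrophages are mostly Hk2, astrocytes mostly Aldoc, neurons mostly Eno2 and Slc2a3, and Ldha takes the larger share only in endothelial cells and macrophages.

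Of the lactate transporters, Slc16a1 was highest in endothelial cells, and Slc16a3 was higher in microglia and macrophages than in the other classes. Slc16a1 (MCT1, chr3:104638668-104658462) was at 507, 239 and 442 CPM in endothelial cells, 117, 100.3 and 216 CPM in astrocytes, 26.8, 38.8 and 30.7 CPM in oligodendrocytes and 19.5, 20.8 and 19.6 CPM in neurons. Endothelial cells exceeded astrocytes in each library, by 1.32 ± 0.31 (SE; adjusted p = 0.000576) on the log2 scale, and astrocytes exceeded neurons by 3.27 ± 0.33 (SE; adjusted p = 6.14e-11). Macrophages held 0 UMIs of Slc16a1 among 348372, which puts endothelial cells at least 42.9-fold and astrocytes at least 16.2-fold higher (3 UMIs over the class's libraries; counting error only). Oligodendrocytes exceeded neurons by 1.30 ± 0.34 (SE; adjusted p = 0.00141) with TMM, but the edgeR difference was 0.67 without TMM (adjusted p = 0.096) and that of DESeq2 0.97 (adjusted p = 0.070), so the call rests on the scaling and model. Slc16a3 (MCT4), the transporter linked to lactate export, was at 179, 10.1 and 61 CPM in microglia, 28.5, 34.2 and 48.6 CPM in macrophages and 0 to 9.75 CPM elsewhere. Its microglial libraries spread widely, and the lowest (10.1 CPM) stood near the highest neuronal one (9.75 CPM), while every macrophage value lay above the other 4 classes. The log2 difference from the other classes was 3.56 ± 0.62 (SE; adjusted p = 1.30e-05) in microglia and 2.71 ± 0.65 (SE; adjusted p = 0.00133) in macrophages. Slc16a7 (MCT2), described as the neuronal transporter, was too sparse to test, at 3.66, 8.82 and 9.10 CPM in neurons. It was not particular to neurons here. Pooled over libraries it was at 9.26 CPM in oligodendrocytes (26 UMIs) and 8.53 CPM in neurons (104 UMIs). Endothelial cells held 0 UMIs of Slc16a7 among 788547, which puts neurons at least 2.24-fold and oligodendrocytes at least 2.43-fold higher.

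Endothelial cells against astrocytes, the 2 classes that meet at the vessel wall, differed in 20 of the tested members. Slc2a1, Slc16a1 and Ldha were higher in endothelial cells and 17 members were lower, where 37.7% of all tested genes were called, 18.2% higher and 19.5% lower, with medians of -1.27 over the tested members and -0.06 over all tested genes. Among the 17 were Pfkm (-3.48 ± 0.46 SE, adjusted p = 3.42e-08), Pygb (-3.61 ± 0.39 SE, adjusted p = 8.81e-11) and Eno1 (-1.80 ± 0.26 SE, adjusted p = 3.79e-07). Ldha was higher by 0.86 ± 0.26 (SE, edgeR adjusted p = 0.00705), a call lost without library 3 (0.78), and Hk1 and Gpi1 lost theirs without it too (-0.81 and -0.62). Gpi1 also lost its call without library 1 (-0.67). The lower level of Pgk1 lost its call on leaving out library 1 (-1.17), 2 (-1.51) or 3 (-1.57).

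Pyruvate enters the mitochondrial cycle through pyruvate dehydrogenase, which its kinases switch off. Pdha1, the catalytic alpha subunit, was at 113, 127 and 158 CPM in astrocytes, 117, 172 and 151 CPM in neurons, 49.1, 75 and 59.7 CPM in oligodendrocytes, 0, 30.2 and 40.7 CPM in microglia and 21.4, 41 and 0 CPM in macrophages. It was higher in astrocytes (1.53 ± 0.25 SE, adjusted p = 2.63e-06) and neurons (1.07 ± 0.24 SE, adjusted p = 0.000157). It was called lower in both phagocyte classes, but each call was lost on leaving out library 1 (-1.22 in microglia, -1.59 in macrophages), library 2 (-1.18, -1.79) or library 3 (-2.17, -0.85). Pdhb, the beta subunit, was higher in neurons only (96.3 to 119 CPM, 0.76 ± 0.24 SE, adjusted p = 0.00601; 0.63 and not called without library 3).

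Among the kinases, Pdk2 was at 67.3, 35.7 and 66 CPM in astrocytes and 64.6, 24.8 and 43.7 CPM in neurons, and was called higher in both (2.07 ± 0.34 SE, adjusted p = 2.06e-06 and 0.97 ± 0.34 SE, adjusted p = 0.0132), the neuronal call being lost without library 3 (0.88). It was lower in macrophages, with 1 UMI in all (-2.96 ± 1.01 SE, adjusted p = 0.0299), a call lost without library 2 (-2.35) or 3 (-2.61). Pdk1, a kinase induced by hypoxia, was nearly absent from oligodendrocytes at 2.23, 0.843 and 1.70 CPM, against 39, 15.6 and 27.6 CPM in neurons and 44.7, 10.1 and 61 CPM in microglia. The oligodendrocyte difference was -3.39 ± 0.60 (SE; adjusted p = 1.15e-05). Pdk4, induced by fasting in other tissues, was not tested. It was at 19.8, 14.5 and 14.5 CPM in astrocytes, 6.70, 3.37 and 5.11 CPM in oligodendrocytes and 0 to 0.588 CPM in neurons. Microglia and macrophages held 0 UMIs. Over all libraries 3 UMIs equal 12.4 CPM in microglia and 8.61 CPM in macrophages, above the oligodendrocyte values. These zeros put astrocytes at least 1.28-fold and 1.84-fold higher, and they do not separate the phagocytes from oligodendrocytes.

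Among the tested classes the 3 glycogen genes had their highest mean level in astrocytes. Pygb, brain glycogen phosphorylase, which releases glucose units from glycogen, was at 347, 116 and 182 CPM in astrocytes and 0 to 25.6 CPM elsewhere, with no overlap (log2 difference 4.11 ± 0.25 SE, adjusted p = 7.35e-19). Pygm, the muscle form of the same enzyme, was at 41.6, 31.2 and 30.6 CPM in astrocytes. It was at 0 to 6.83 CPM in the other tested classes, again with no overlap. Mural cells, which entered no test, overlapped with astrocytes in Pygm (values under the other observations), so it was not particular to astrocytes. Endothelial cells held 0 UMIs of Pygm, so astrocytes were at least 8.83-fold higher, and microglia held 0 as well. Against neurons the Pygm log2 difference was 3.93 ± 0.43 (SE; adjusted p = 4.40e-10). Gys1, the muscle-type glycogen synthase, was at 47.5, 17.8 and 25.7 CPM in astrocytes, 13.4, 5.52 and 9.79 CPM in neurons and 2.23, 0 and 1.70 CPM in oligodendrocytes. Microglia overlapped with astrocytes, at 44.7, 0 and 20.3 CPM. Gys1 was higher in astrocytes than in the mean of the others (2.56 ± 0.40 SE, adjusted p = 7.41e-07) and lower in oligodendrocytes (-2.74 ± 0.76 SE, adjusted p = 0.00285; -3.22 and not called without library 3).

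Other genes of the pathway, a list of 49, were counted in the same fit, where 27 were tested. Counting only the 22 with a UMI in every class, a choice made after seeing the data, 12 were higher and 1 lower in astrocytes, 4 and 11 in neurons, 7 and 3 in oligodendrocytes, 3 and 4 in endothelial cells, 2 and 1 in microglia, and 2 and 3 in macrophages. With the 5 others the counts were 14 and 1, 7 and 10, 7 and 3, 4 and 5, 3 and 2, and 4 and 3. Ppp1r3c, which targets a protein phosphatase to glycogen, was at 105, 139 and 137 CPM in astrocytes and 0 to 20.1 CPM elsewhere, with no overlap (4.82 ± 0.31 SE, adjusted p = 9.44e-19). Phkg1, a subunit of phosphorylase kinase, was at 101, 63.5 and 59.5 CPM in astrocytes and 15.8, 3.64 and 3.85 CPM in neurons (4.11 ± 0.38 SE, adjusted p = 1.74e-12). Ugp2, which makes the glucose donor of glycogen, was at 239.6, 446 and 298 CPM in astrocytes (3.05 ± 0.19 SE, adjusted p = 3.02e-17).

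In endothelial cells the leading gene of that list was Bsg, the chaperone of lactate transporters, at 15581, 14286 and 14285 CPM (5.06 ± 0.16 SE, adjusted p = 6.26e-27). In oligodendrocytes Gpd1, glycerol-3-phosphate dehydrogenase, was at 114, 196 and 417 CPM against 69.5, 50.8 and 54.6 CPM in neurons (2.52 ± 0.35 SE, adjusted p = 4.55e-08). Bpgm, bisphosphoglycerate mutase, was at 279, 362 and 408 CPM there (3.09 ± 0.19 SE, adjusted p = 1.52e-17). Both were high in oligodendrocytes, the class in which 14 members were lower. Pdp1, the phosphatase that reactivates pyruvate dehydrogenase, was at 109.7, 167 and 166 CPM in neurons, and oligodendrocytes stood below neurons by -3.19 ± 0.36 (SE; adjusted p = 7.45e-10). Emb, another chaperone of lactate transporters, was at 85.6, 75.2 and 97.2 CPM in macrophages and 0 in microglia.

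Among neurons, the spiny neurons that carry the D1 or D2 dopamine receptor differed in no tested member past the threshold, while the glutamatergic neurons were higher in 10. D1 neurons numbered 179, 1238 and 273 in libraries 1, 2 and 3, D2 neurons 189, 689 and 226, and glutamatergic neurons 47, 115 and 75. The glutamatergic gate used Slc17a7, Slc17a6, Neurod6, Neurod2 and Tbr1. Where these cells lay in the dissected tissue, or whether they came from its border, is not recorded. Neuron type and position therefore cannot be told apart here. Of the 32 members 25 passed the low-count filter in this fit of 8428 genes. Between D2 and D1 neurons edgeR called 0 members, where 0.914% of all tested genes were called, 0.368% higher and 0.546% lower; 1 member had an unadjusted p under 0.05 with edgeR and 1 with DESeq2, which also called 0. That member was Pfkp with edgeR, at 161, 161 and 139 CPM in D2 and 201, 221 and 195 CPM in D1 neurons, lower in D2 in 3 of 3 libraries (-0.41 ± 0.14 SE, adjusted p = 0.424), and without library 1 edgeR called 1 member. A missed threshold does not show that the 2 types are alike.

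In glutamatergic neurons 10 members were higher and 0 lower than in the mean of D1 and D2 neurons, where 26.8% of all tested genes were called, 14% higher and 12.7% lower, with medians of 0.27 over the tested members and -0.04 over all tested genes. DESeq2 called 9 higher and 0 lower, and 11 members had an unadjusted p under 0.05 in either direction with edgeR. Hk1 was at 334, 162 and 235 CPM in glutamatergic, 116, 91.9 and 86 CPM in D1 and 114, 64.2 and 85.6 CPM in D2 neurons, with no overlap (1.32 ± 0.15 SE, adjusted p = 2.85e-06). Pdha1 was at 197, 287 and 201 CPM in glutamatergic neurons and 84.5 to 153 CPM in spiny neurons (0.83 ± 0.14 SE, adjusted p = 0.000144). Pgam1 was at 678, 792 and 692 CPM against 342 to 628 CPM (0.57 ± 0.12 SE, adjusted p = 0.00108). For these 3 genes the lowest glutamatergic value was above the highest spiny one. The Pgam1 call was lost without library 3 (0.56).

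The remaining 7 were Pygb (1.01 ± 0.29), Pdk2 (0.98 ± 0.24), Pdk1 (0.86 ± 0.29), Eno1 (0.53 ± 0.14), Pfkp (0.48 ± 0.13), Ldha (0.40 ± 0.13) and Tpi1 (0.40 ± 0.11). The number called was 4 without library 2, 2 without library 3 and 2 without the library block. Glutamatergic neurons held more UMIs per cell, with medians of 2075, 4033 and 6942 against 1221, 2554 and 2963 in D1 neurons. Leaving out the 5% of cells with most UMIs gave 4 members higher and 1 lower, and the part of depth in the result was not tested. The neuron-defining isoforms Eno2 and Slc2a3 were not called between these neurons (-0.16 ± 0.12 SE, adjusted p = 0.338 and -0.30 ± 0.14 SE, adjusted p = 0.143).

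**Figure D5:**
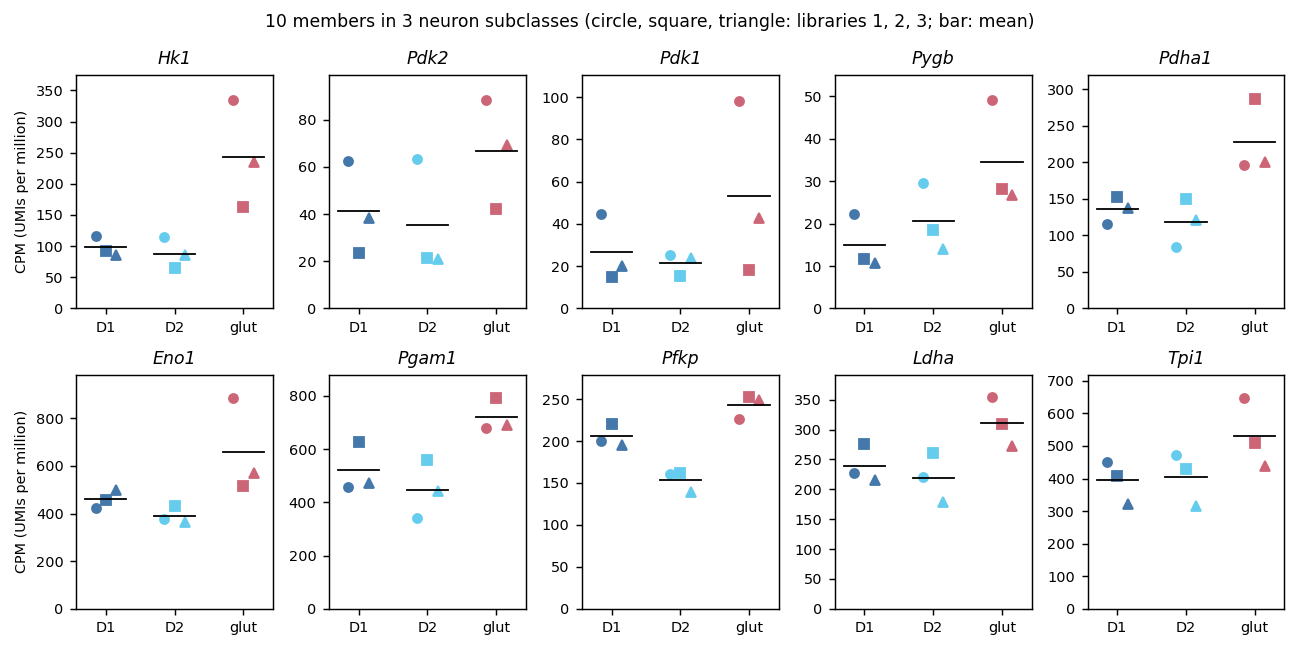
Level (CPM, linear axis from 0) of the 10 members called higher in glutamatergic neurons, in D1, D2 and glutamatergic neurons; circle, square and triangle are libraries 1, 2 and 3, and the bar is their mean. Hk1, Pdha1 and Pgam1 separate in every library, while the other 7 overlap or nearly overlap between types.

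Some members share sequence or locus with other genes. Gapdh has 91 genes with a near-identical 3′ end in the GRCm38 annotation, of which 1 is in the table, and Eno1, Aldoa, Ldha, Ldhb, Gpi1, Tpi1 and Pkm have between 1 and 5. The copies of Aldoa, Gapdh and Eno1 in the table held 2, 1 and 62 UMIs, so reads shared with copies could lower the counts of these members by an amount not measured here. Pfkm and Pfkfb2 overlap a gene on their own strand, Gm26513 and Gm29427, and their counts are uncertain to that extent.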

How the data were processed

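Single cells of 3 libraries (10x Genomics 3′ v2 kit, per the labels) were analysed from the deposited filtered matrix of UMI counts, which the authors made with Cell Ranger 3.0 and the mm10 build, per the submitters' processing notes; the gene annotation release and the removal of doublets or free RNA are not given in the sources used here. The matrix joins the libraries, told apart by the barcode suffix, whose number is only a name here, and shared barcode sequences numbered 13, 7 and 22 between pairs of libraries.

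Barcodes under 300 detected genes or above 20% mitochondrial UMIs were dropped. A cell joined a class with at least 3 markers of its list and at least 3 times as many as of any other list (2 and 2 for neuron subclasses). This rule was the only step against doublets, and cells with some markers of another list could pass it. No doublet caller was run, and the doublets left were not measured. Of the listed markers 3 are absent from the table. Counts were summed per library and class and tested with edgeR 4.0.16 in R 4.3.3 (TMM, filterByExpr, quasi-likelihood test, library as block because libraries hold all classes, Benjamini-Hochberg over all tested genes, called at 0.05), a script tested on simulated data. A class mean of the other classes has no finite log value for a gene at 0 in 1 of them, which touched 1330 of 9193 tested genes and the members Slc16a1 and Pygm; for these no fold against the other classes is printed. With them at a bound of 3 UMIs the members' median was 0.76 in neurons, -0.80 in oligodendrocytes, -0.63 in endothelial cells, -0.16 in macrophages, -1.01 between oligodendrocytes and neurons and 0.16 between macrophages and microglia. Isoform shares were compared with exact sign-flip tests over libraries.

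Values per library are given for members called with an absolute log2 difference of at least 1, and for isoforms whose leading form differs between classes; other pathway genes are named at 2 or more, at most 4 a class. The members and lists were chosen with earlier results of these data known. Parvalbumin and Sst-Npy neurons were not analysed, having under 10 cells in a library. Alternatives were DESeq2 1.42.0, no TMM, no filter, edgeR's default fit, no block, other gates, UMI and mitochondrial limits, and each library left out.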

Additional observations from a re-analysis of the deposited data

How the results depend on the processing

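The members called were 137 pairs of gene and comparison without a class at 0. Over 1808 alternatives of these pairs 1613 kept direction and call, 191 kept direction without the call and 4 turned, while 33 gave no value because a compared class was at 0. All 4 came from the gate that admits no marker of another class, which keeps few cells: Aldoc between oligodendrocytes and neurons (-0.34), Eno1 (-0.51) and Ldha (-0.17) in glutamatergic neurons, and Tpi1 in endothelial cells (0.16), none of them called. That gate left 14 members to test, and 12 among neuron types, against 29 and 25, so its counts have a smaller base. The number called was 11 in neurons, 8 in astrocytes, 5 in oligodendrocytes, 6 in endothelial cells, 3 in microglia, 3 in macrophages, 7 between astrocytes and neurons, 11 between oligodendrocytes and neurons, 8 between endothelial cells and astrocytes, 1 between macrophages and microglia and 0 in glutamatergic neurons, where 2 had an unadjusted p under 0.05 with edgeR; DESeq2 was not run on it. The share difference of Slc2a3 was then -94.0 percentage points and that of Pfkl 30.4 (exact sign-flip p = 0.75). Without the library block, which the pairing of classes within libraries supplies, the counts were 3 in microglia, 4 in macrophages, 1 between them and 2 in glutamatergic neurons; the block moved no other count by over 1.5 times, and 37 of the 137 calls were lost without it. Leaving out the 5% of cells with most UMIs, chosen after seeing the data, gave 5 in glutamatergic neurons. Leaving out 1 library at a time gave 7 to 10 in endothelial cells, 3 to 6 in microglia, 4 to 5 in macrophages, 9 to 13 between astrocytes and neurons, 0 to 2 between macrophages and microglia, 0 to 1 between D2 and D1 neurons and 2 to 13 in glutamatergic neurons. The 137 leave out the 9 calls of Slc16a1 and Pygm, which an alternative limited to genes with a UMI in every class, also chosen after seeing the data, drops by construction. At the depth of the phagocyte classes 3 UMIs in a library equal 20.5 to 67.1 CPM, so their levels of Hk1, Pdha1 and the kinases rest on a few UMIs.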

Other observations

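Smaller classes that entered no test also carried the genes. T cells (22, 50 and 11 cells in libraries 1, 2 and 3) held Ldha at 580.4, 815 and 294 CPM and Ldhb at 41.5, 133 and 0 CPM, so Ldha was above Ldhb in each library. Mural cells, the pericytes and smooth muscle of vessels (43, 157 and 65 cells), held Pygm at 31.1, 33.6 and 58.7 CPM, against 30.6 to 41.6 CPM in astrocytes, and Ugp2 at 156, 174 and 159 CPM. Their Slc2a1 was at 31.1, 22.4 and 16.8 CPM, far under that of endothelial cells. The 5 oligodendrocyte check markers reached 9585, 2215 and 1156 CPM in the same mural libraries. Oligodendrocyte precursors (24, 28 and 17 cells) held Aldoa at 41.9, 393 and 331 CPM and 0 UMIs of Slc2a1 and Slc2a3. At their depth 3 UMIs equal 125.7, 90.8 and 71.0 CPM in libraries 1, 2 and 3, so these zeros do not show absence.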
